A study of Prunus avium with 6 samples.

Results

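Fruit of the sweet cherry (Prunus avium) cultivar Bing was compared with fruit of the cultivar Rainier, gene by gene, from the reads that 454 FLX sequencing of fruit RNA gave. The 2 libraries were chosen by their tissue and cultivar labels, and they are 2 of the 6 libraries of a study that sequenced fruit and leaf of Bing, Rainier and Lapins once each. Of the 43673 predicted genes in the files, 12598 had at least 1 uniquely mapped read in Bing or Rainier fruit. Bing fruit has a dark mahogany skin and was collected at Quillota, Rainier fruit is bicolour, yellow with a red blush, and was collected at San Francisco de Mostazal, and Lapins fruit is red mahogany and came from Los Andes, all in Chile. All were collected at commercial maturity in the 2012 season, carry the age label 1 with no unit, and received no treatment that the labels name. The labels do not say how many trees or fruits were pooled into a library. There was 1 library for each cultivar and tissue, so every interval and call below covers counting error only and compares these libraries, not the cultivars. The orchard differed with the cultivar, so effects of cultivar and site cannot be told apart, and in bulk fruit tissue fewer cells of a type and less RNA per cell cannot be told apart either.

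Sweet cherry colour comes mainly from anthocyanins, flavonoid pigments built from phenylalanine, which plants make through the shikimate pathway. Flavonoid 3'-monooxygenase adds a hydroxyl group to the flavonoid B ring and so opens the branch to cyanidin pigments. A ripening stone fruit also remodels its cell wall, through cellulose synthases, xyloglucan enzymes and pectin enzymes. Gene descriptions were held for 428 genes only, most of which lie on a few scaffolds, so the functional account below covers a fraction of the expressed genes, and the pigment pathway in particular is represented by few of its enzymes.

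Bing fruit gave 116264 unique reads and Rainier fruit 83953, and a gene's level is given as its share, in reads per 10000 unique reads of its library. Bing fruit had reads on 11086 genes and Rainier fruit on 9600, and 8088 genes were read in both. A count of 0 was taken to allow up to 3 reads, which is 0.258 reads per 10000 in Bing fruit and 0.357 in Rainier fruit. The tissue labels were checked on leaf genes: the chlorophyll a-b binding gene had 0 reads in Bing fruit and 1 in Rainier fruit, against 57 in Bing leaf and 55 in Rainier leaf. Late embryogenesis, stigma and anther marker genes had 0 reads in the 6 libraries. The other 4 libraries held between 70058 and 89009 unique reads.

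Reads were spread over more genes in Bing fruit than in Rainier fruit. The 10 most read genes held 8.51% of the reads of Bing fruit (exact binomial 95% interval 8.35% to 8.68%) and 16.5% of those of Rainier fruit (16.3% to 16.8%). The intervals were far apart, and 6 genes were among the 10 most read of both fruits. It took 911 genes to reach 50% of the reads in Bing fruit and 542 genes in Rainier fruit. The most read gene of both, Pav_sc0000058.1_g360.1.br, had no description and took 2448 reads, or 2.11% (2.02% to 2.19%), in Bing fruit and 4027 reads, or 4.80% (4.65% to 4.94%), in Rainier fruit. Because shares add up to the library total, a larger share on a few genes in one library lowers the shares of its other genes.

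**Figure D1:**
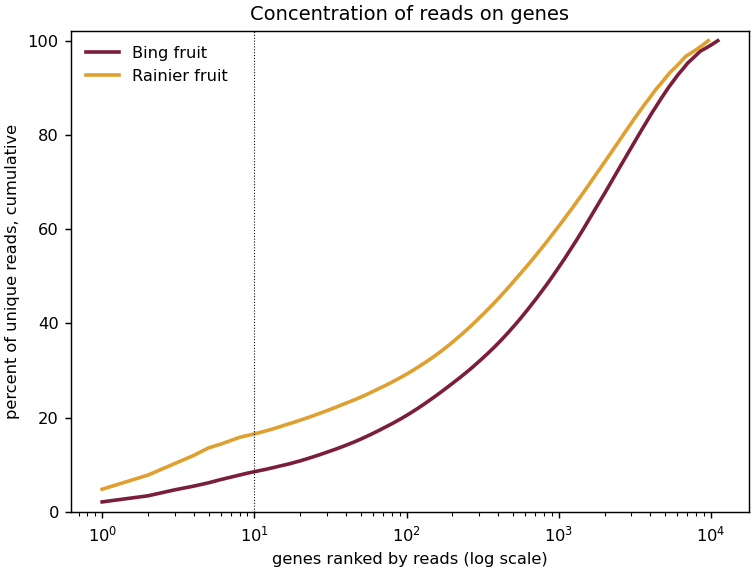
Cumulative percent of unique reads (vertical axis) against genes ranked from most to least read (horizontal axis, log scale), for Bing fruit and Rainier fruit. The Rainier line lies above the Bing line, and at the dotted mark of 10 genes the values are 8.51% for Bing fruit and 16.5% for Rainier fruit.

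Calls followed 3 criteria taken from the study's description, which does not say whether its p-values were adjusted. The unadjusted form was a choice made here, so the 671 and 404 calls below are not the study's counts. Here the Z-test on the 2 shares had to reach an unadjusted p of 0.05 or less, the shares had to differ 2-fold or more in either direction, and Bing or Rainier fruit had to hold 10 reads of the gene or more. Of the 3259 genes that met the read minimum, 671 were called higher in Bing fruit (20.6%) and 404 higher in Rainier fruit (12.4%). The Bing side thus held 62.4% of the 1075 calls. With upper-quartile library sizes that side held 36.9% and with DESeq2 size factors 49.3%, so the side with more calls depended on the scaling. These scalings moved every log2 ratio of Bing over Rainier fruit by -0.38 and -0.20, and the ratios below are those from plain library sums. Over the 4375 genes with at least 10 reads in the pair, the median log2 ratio of Bing over Rainier fruit was 0.31, with quartiles at -0.47 and 1.04. The calls also depended on adjustment. With p-values adjusted over the genes with a read, 206 genes were called higher in Bing fruit and 233 in Rainier fruit. Adjusted over all genes of the files, those without a read in either fruit included, the counts were 120 and 173.

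Under the unadjusted criteria, calls toward Rainier were fewer but carried more of the reads. They were the more numerous with adjusted p-values and with upper-quartile or DESeq2 library sizes. With 10 reads required in both fruits they were so too (119 higher in Bing and 184 in Rainier). That rule favours calls toward Rainier, since 10 reads in the lower fruit are reached more easily in Bing fruit, the deeper library. The main rule of 10 reads in either fruit leans toward Bing. In Bing fruit 2937 genes had 10 reads or more, and in Rainier fruit 1795. With Bing fruit thinned to the depth of Rainier fruit, 576 genes were called higher in Bing and 393 in Rainier. The 671 genes called higher in Bing fruit held 18.8% of the reads of Bing fruit and 5.26% of those of Rainier fruit. The 404 genes called higher in Rainier fruit held 9.01% of the reads of Bing fruit and 28% of those of Rainier fruit. Most calls rested on low counts, since the median was 22.0 reads in Bing fruit for the first set and 21.0 reads in Rainier fruit for the second. On the Bing side 299 genes had under 20 reads in Bing fruit, and on the Rainier side 186 had under 20 in Rainier fruit. Ratios of at least 10 numbered 138 on the Bing side and 46 on the Rainier side. Both numbers include the called genes with 0 reads in the other fruit, whose ratio has no finite value. They were not counted again with a 0 held at the reads it was taken to allow, so the size of those ratios is not known. Of the genes called higher in Bing fruit 72 had 0 reads in Rainier fruit, and of those called higher in Rainier fruit 10 had 0 reads in Bing fruit, which was the deeper library. Among the genes called higher in Bing fruit, 48 lay next to another such gene in the scaffold order (7.15%), against 5.92% of all genes that met the minimum. Among those called higher in Rainier fruit the number was 25 (6.19%), against 3.90% of all genes that met the minimum.

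**Figure D2:**
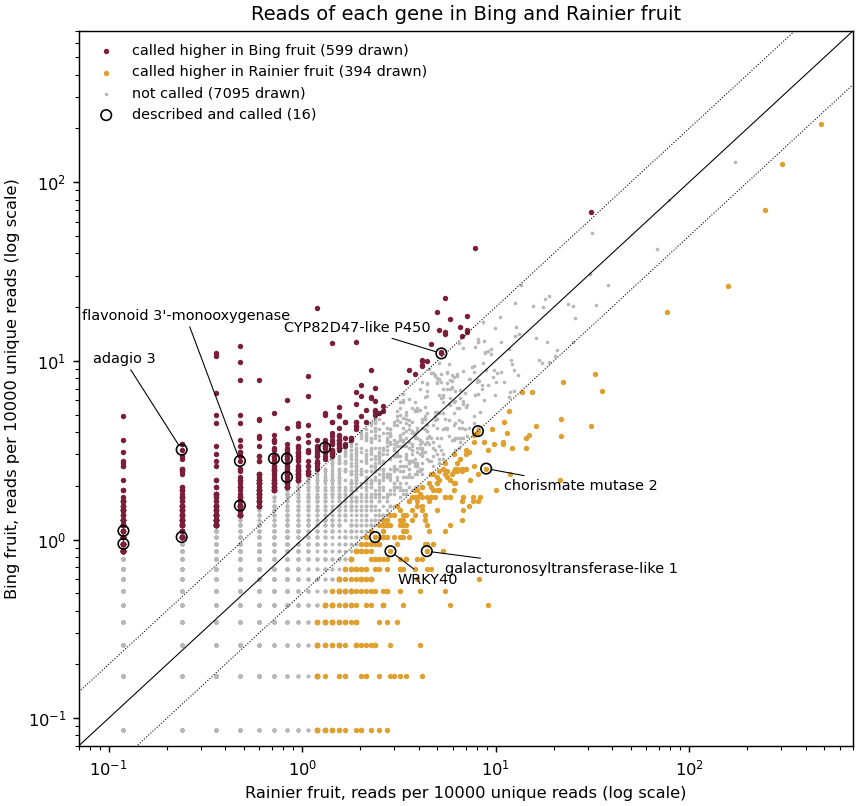
Each point is a gene read in both fruits, with its level in Bing fruit (vertical axis) and Rainier fruit (horizontal axis) in reads per 10000 unique reads on log scales; the solid line marks equal shares, the dotted lines a ratio of 2 either way, and circles the 16 described genes that were called. The most read genes, at the upper right, lie mostly under the line of equal shares, while the many genes called higher in Bing fruit lie above it at low levels; genes at 0 in a library are not drawn.

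Of the 428 described genes, 217 had a read in either fruit and 60 met the read minimum. Of these 60, 11 were called higher in Bing fruit (18.3%, against 20.6% of all genes tested) and 5 higher in Rainier fruit (8.33%, against 12.4%), and 44 were not called. Both shares lay near those of all genes tested. With p-values adjusted over the genes with a read, 9 of the 16 calls held. Adjusted over all genes of the files, 6 of the 16 held: adagio 3, flavonoid 3'-monooxygenase, the CYP82D47-like gene, chorismate mutase 2, cellulose synthase A3 and galacturonosyltransferase-like 1. The 16 genes are described below by what they are known to do.

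The pigment and aromatic list had 8 genes, 4 of them read and 3 with enough reads. Of these 3, 1 was called in each direction. Of all genes tested, 20.6% were called higher in Bing fruit and 12.4% higher in Rainier fruit. The gene described as flavonoid 3'-monooxygenase (Pav_sc0000877.1_g1900.1.br) had 32 reads in Bing fruit and 4 in Rainier fruit, or 2.75 and 0.476 reads per 10000. Its share was 5.78 times higher in Bing fruit (exact 95% interval 2.05 to 22.5). Lapins fruit, the other red cultivar, had 37 reads of it, or 4.98 per 10000, so the bicolour fruit was the lowest of the 3. In leaves the gene had 6 reads in Bing and 4 in Rainier, a ratio of 1.18 (0.281 to 5.70).

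Chorismate mutase 2 (Pav_sc0000890.1_g420.1.mk), which turns chorismate into prephenate on the way to phenylalanine and tyrosine, stood the other way. It had 29 reads in Bing fruit and 75 in Rainier fruit, or 2.49 and 8.93 reads per 10000. The ratio of Bing over Rainier was 0.279 (0.175 to 0.434). Lapins fruit had 59 reads, or 7.93 per 10000, close to Rainier fruit. A link of this gene or of flavonoid 3'-monooxygenase to skin colour was not tested. The leaf reads of chorismate mutase 2 were 28 in Bing and 36 in Rainier, with a ratio of 0.613 (0.361 to 1.03). Carotenoid cleavage dioxygenase 1, which cuts carotenoids into aroma compounds, had 10 reads in Bing fruit and 4 in Rainier fruit and was not called, with a ratio of 1.81 (0.521 to 7.89).

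**Figure D3:**
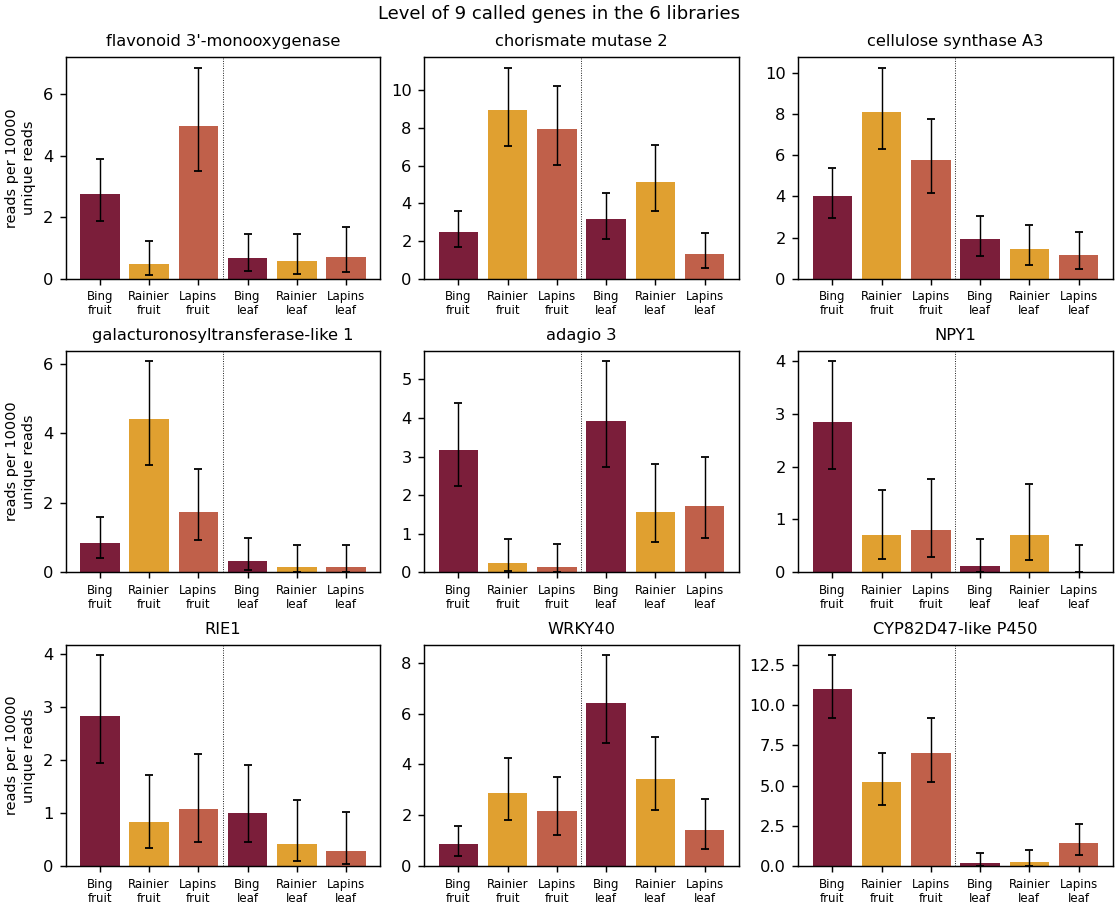
Reads per 10000 unique reads (vertical axis, one scale per panel) of 9 called genes in the 6 libraries, with exact Poisson 95% intervals as error bars that cover counting error only; each bar is 1 library, and a dotted line parts fruit from leaf. Flavonoid 3'-monooxygenase is low in Rainier fruit (0.476) beside Bing fruit (2.75) and Lapins fruit (4.98), and chorismate mutase 2 is low in Bing fruit (2.49) beside Rainier fruit (8.93) and Lapins fruit (7.93).

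Of 21 cell wall genes, 11 had a read and 4 met the minimum, and 2 of these 4 were called, both higher in Rainier fruit, where 12.4% of all genes tested were called. Galacturonosyltransferase-like 1 (Pav_sc0000890.1_g1520.1.mk), whose Arabidopsis counterpart takes part in xylan synthesis, had 10 reads in Bing fruit and 37 in Rainier fruit, or 0.860 and 4.41 per 10000. The ratio was 0.195 (0.0866 to 0.400), the largest difference of the 5 described genes on the Rainier side, and Lapins fruit had 13 reads, or 1.75 per 10000. Cellulose synthase A3 (Pav_sc0000882.1_g140.1.mk), a catalytic subunit for primary wall cellulose, had 47 reads in Bing fruit and 68 in Rainier fruit, or 4.04 and 8.10 per 10000. Its ratio of 0.499 (0.337 to 0.735) only just met the criterion of 2, and counting non-specific reads as well took it below that.

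The remaining cell wall genes with at least 10 reads over the pair did not meet the criteria. The probable xyloglucan endotransglucosylase/hydrolase 28, which cuts and rejoins xyloglucan chains, had 55 reads in Bing fruit and 36 in Rainier fruit, with a ratio of 1.10 (0.712 to 1.73). Xyloglucan 6-xylosyltransferase 5, which adds xylose to xyloglucan, had 12 and 7 reads in Bing and Rainier fruit (ratio 1.24, 0.449 to 3.71). The direction of both turned under upper-quartile library sizes, to log2 ratios of -0.24 and -0.07. A fucosyltransferase-like gene had 5 reads in each fruit (0.722, 0.166 to 3.14). Over the whole list, the 2 called genes included, the summed level was 12.3 reads per 10000 in Bing fruit and 19.4 in Rainier fruit. The 2 called genes gave 4.04 and 0.860 of this in Bing fruit, and 8.10 and 4.41 in Rainier fruit. The sum thus stood higher in Rainier fruit through these 2 genes. The median log2 ratio of the 5 members with at least 10 reads over the pair was -0.47, beside 0.31 for all such genes. UDP-glucose 6-dehydrogenase 5, which supplies sugar nucleotides for hemicellulose and pectin, had 0 reads in Bing fruit, 8 in Rainier fruit and 16 in Lapins fruit. It stayed under the minimum of 10 and was singled out after its values were seen. The exact 95% interval for its ratio of Bing over Rainier reached from 0 to 0.423. A hydroxyproline-rich glycoprotein family gene of the same list, also under the minimum, stood the other way. It had 8 reads in Bing fruit, 0 in Rainier fruit and 3 in Lapins fruit, and its interval began at 1.23.

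Of 30 genes of ubiquitin tagging and protein turnover, 7 met the minimum. Of these 7, 3 were called higher in Bing fruit, where 20.6% of all genes tested were called, 4 were not called, and none was called higher in Rainier fruit. Adagio 3 (Pav_sc0000893.1_g420.1.mk), which in Arabidopsis is a blue light receptor of a ubiquitin ligase complex that sets flowering time, had 37 reads in Bing fruit and 2 in Rainier fruit, or 3.18 and 0.238 per 10000. The ratio was 13.4 (3.45 to 114), the largest of the 16, and Lapins fruit had 1 read. Adagio 3 was also the single one of the 16 called the same way in leaf, with 35 reads in Bing leaf and 11 in Rainier leaf and a ratio of 2.51 (1.25 to 5.48).

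NPY1 (Pav_sc0000890.1_g380.1.mk), known in Arabidopsis for a part in auxin-mediated organ formation, had 33 reads in Bing fruit and 6 in Rainier fruit, a ratio of 3.97 (1.64 to 11.6). RIE1 (Pav_sc0000893.1_g380.1.mk), a RING-type ubiquitin ligase needed for Arabidopsis seed development, had 33 and 7 reads in Bing and Rainier fruit, a ratio of 3.40 (1.48 to 9.12). Lapins fruit lay near Rainier fruit for both, with 6 and 8 reads. The list as a whole, the 3 called genes included, summed to 21.7 reads per 10000 in Bing fruit and 11.1 in Rainier fruit. Adagio 3, NPY1 and RIE1 gave 3.18, 2.84 and 2.84 of this in Bing fruit. In Rainier fruit they gave 0.238, 0.715 and 0.834. The median log2 ratio of the list was 1.09 over 10 genes, beside 0.31 for all genes. The 4 members that met the minimum and were not called included a puromycin-sensitive aminopeptidase, with 62 reads in Bing fruit and 32 in Rainier fruit (ratio 1.40, 0.899 to 2.22). Ubiquitin carboxyl-terminal hydrolase 2, with 11 and 2 reads in Bing and Rainier fruit (3.97, 0.867 to 36.9), had the ratio of NPY1 on fewer reads and did not reach the p of the Z-test.

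Among 30 chromatin, nucleus and RNA genes, 5 met the minimum and 2 of these 5 were called, both higher in Bing fruit, where 20.6% of all genes tested were called. RRC1-like (Pav_sc0000890.1_g210.1.mk), a splicing protein that in Arabidopsis acts in red light signalling, had 26 reads in Bing fruit and 7 in Rainier fruit, a ratio of 2.68 (1.13 to 7.32). Hepatoma-derived growth factor-related 2 (Pav_sc0000890.1_g530.1.mk), whose human namesake reads histone marks, had 38 reads in Bing fruit and 11 in Rainier fruit, a ratio of 2.49 (1.25 to 5.41). The DNA repair helicase XPB1, with 24 reads in Bing fruit and 13 in Rainier fruit, was not called (1.33, 0.652 to 2.85). The list, the 2 called genes included, summed to 14.9 reads per 10000 in Bing fruit and 8.93 in Rainier fruit. RRC1-like and hepatoma-derived growth factor-related 2 gave 2.24 and 3.27 of this in Bing fruit, and 0.834 and 1.31 in Rainier fruit. The median log2 ratio of the list was 0.26 over 8 genes, beside 0.31 for all genes.

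Of the 16 called genes 4 belonged to no list. ARID2-like (Pav_sc0000886.1_g310.1.mk), with a DNA-binding domain of the AT-rich interaction type, had 18 and 4 reads in Bing and Rainier fruit, a ratio of 3.25 (1.07 to 13.2). A B3 domain gene (Pav_sc0000890.1_g1020.1.mk), of a plant family of DNA-binding proteins, had 12 reads in Bing fruit and 2 in Rainier fruit. Its exact interval for the ratio of 4.33 reached below 1 (0.965 to 39.9), so this call rests on the normal approximation of the Z-test. The G-type lectin S-receptor-like kinase At1g34300 (Pav_sc0000893.1_g620.1.mk), of a family of plant surface receptors, had 13 reads in Bing fruit and 1 in Rainier fruit (9.39, 1.41 to 399). PIN2/TERF1-interacting telomerase inhibitor 1 (Pav_sc0000886.1_g720.1.mk), known from human cells as a nucleolar telomerase inhibitor, had 12 and 20 reads in Bing and Rainier fruit, a ratio of 0.433 (0.193 to 0.931).

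Heat stress transcription factor A-8 (Pav_sc0000893.1_g540.1.mk) was the single member of the 6 folding and heat genes to meet the minimum. It was called higher in Bing fruit, as were 20.6% of all genes tested, with 11 reads in Bing fruit and 1 in Rainier fruit (7.94, 1.15 to 342). None of the 30 genes of the transcription factor list had 10 reads in either fruit. That list leaves out heat stress transcription factor A-8, the B3 domain gene and WRKY40 (described below), which were placed in other lists or in no list.

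The CYP82D47-like cytochrome P450 (Pav_sc0000890.1_g1250.1.mk), of a family of oxidising enzymes in specialised metabolism, was the most read of the 16 called genes. It had 128 reads in Bing fruit and 44 in Rainier fruit, or 11 and 5.24 per 10000, a ratio of 2.10 (1.48 to 3.03). Lapins fruit lay between them at 6.99 per 10000, while each leaf of Bing and Rainier had 2 reads. The ratio was close to the criterion of 2, and it fell short of it under each of the other scalings, down to a log2 ratio of 0.69 with upper-quartile library sizes. Of 8 genes with this description 3 had a unique read in either fruit, and the gene had 6 non-specific reads in Bing fruit and 4 in Rainier fruit, so reads shared with its copies could be split among them.

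Of 26 defence and immune receptor genes, 10 had a read and 2 met the minimum. Of these 2, 1 was called, higher in Rainier fruit, where 12.4% of all genes tested were called. WRKY40 (Pav_sc0000890.1_g500.1.mk), a transcription factor that in Arabidopsis acts in defence and abscisic acid responses, had 10 reads in Bing fruit and 24 in Rainier fruit, a ratio of 0.301 (0.128 to 0.653). The other of the pair, a MACPF domain-containing gene of a family of immune regulators, had 20 reads in Bing fruit and 8 in Rainier fruit and was not called (1.81, 0.762 to 4.74).

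**Figure D4:**
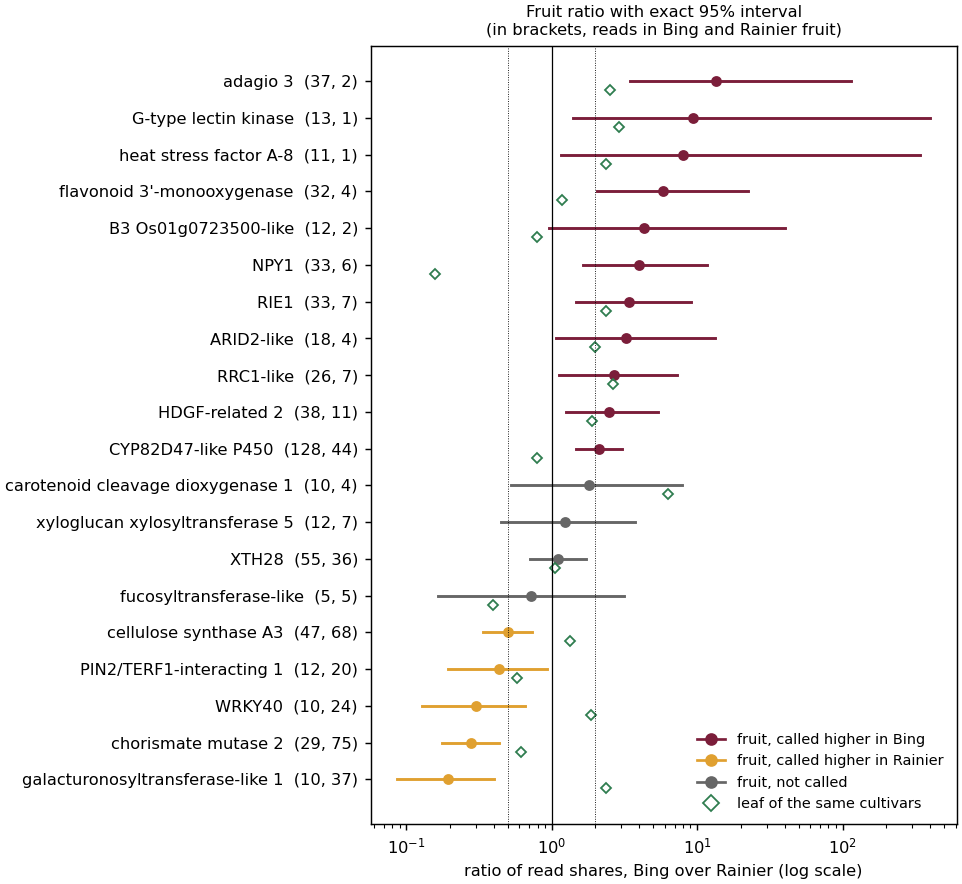
Ratio of read shares, Bing over Rainier (horizontal axis, log scale), for the 16 called genes and the 4 pigment and cell wall genes that were not called, with exact 95% intervals for the fruit ratio and an open diamond for the leaf ratio of the same cultivars; the solid line marks 1 and the dotted lines a ratio of 2 either way. Adagio 3 has the highest ratio (13.4) and galacturonosyltransferase-like 1 the lowest (0.195), and the B3 gene is the called one whose interval crosses 1; no diamond is drawn where Rainier leaf had 0 reads.

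Several lists, each with few genes that met the minimum, had no member called in either direction. Of all genes tested, 20.6% were called higher in Bing fruit and 12.4% higher in Rainier fruit. The 5 hormone genes that met the minimum included the auxin receptor kinase TMK1-like, with 25 reads in Bing fruit and 19 in Rainier fruit (ratio 0.950, 0.502 to 1.83). Allene oxide synthase, which opens jasmonate synthesis, had 17 and 8 reads in Bing and Rainier fruit (1.53, 0.628 to 4.11). In membrane trafficking none of 5 was called, and transmembrane 9 superfamily member 8 had 90 reads in Bing fruit and 69 in Rainier fruit. Its ratio of 0.942 had an interval of 0.681 to 1.31, which leaves out a difference of 2-fold either way. The same held for beta-adaptin B, a coat subunit of vesicles, in the direction of higher levels in Bing fruit only, with 38 and 35 reads in Bing and Rainier fruit (0.784, 0.482 to 1.28).

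Of the 6 transporter genes and the 4 genes of carbon, amino acid and redox metabolism that met the minimum, none was called. The shares of all genes tested were again 20.6% toward Bing fruit and 12.4% toward Rainier fruit. An NRT1/PTR family transporter, of a family that carries nitrate and peptides, had 38 reads in Bing fruit and 22 in Rainier fruit (1.25, 0.719 to 2.21). Aquaporin PIP1-3, a water channel, had 17 and 7 reads in Bing and Rainier fruit (1.75, 0.691 to 5). Photosynthesis and lipid lists had 1 gene each with enough reads and translation had 2, and none of these was called. For most of these genes the intervals still held ratios of 2, so these counts do not leave out a difference of that size.

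Beyond the described genes, the smallest Z-test p-values belonged to genes without a description. Pav_sc0001392.1_g560.1.mk had 499 reads in Bing fruit and 66 in Rainier fruit, or 42.9 and 7.86 per 10000, a ratio of 5.46 (4.22 to 7.17), with 48 reads in Lapins fruit. Pav_sc0000554.1_g050.1.br had 231 reads in Bing fruit and 10 in Rainier fruit, a ratio of 16.7 (8.91 to 35.2), and it also differed in leaf, with 26 reads in Bing and 2 in Rainier. In the other direction, Pav_sc0001900.1_g030.1.mk had 812 reads in Bing fruit and 2062 in Rainier fruit, a ratio of 0.284. The most read gene named above had a ratio of 0.439 (0.417 to 0.462). Both genes higher in Rainier fruit had at most 12 reads in either leaf.

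The leaves of the same cultivars were used to see whether a fruit difference also appeared in another tissue of the 2 cultivars. In leaf, 2395 genes met the minimum, and 321 were called higher in Bing (13.4%) and 239 higher in Rainier (9.98%). Of the 671 genes called higher in Bing fruit, 235 met the minimum in leaf and 47 of these were called higher in Bing leaf too (20% of the 235, 7% of the fruit list and 14.6% of the leaf list), while 10 were called the other way. Of the 404 genes called higher in Rainier fruit, 199 met it and 25 were called higher in Rainier leaf (12.6% of the 199, 6.19% of the fruit list and 10.5% of the leaf list), while 19 were called the other way. Among the described genes, the leaf ratio had the direction of the fruit ratio in 8 of the 11 on the Bing side and in 2 of the 5 on the Rainier side. Several of these directions rest on few leaf reads. Apart from adagio 3 and WRKY40, every leaf interval of these genes held a ratio of 1. The same count over all called genes was not made.

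The ratio in fruit was also set against the ratio in leaf by an exact test over the 2363 genes with at least 10 reads in each pair. It found 154 genes at an adjusted p under 0.05 (6.52%), 61 with a higher Bing over Rainier ratio in fruit than in leaf and 93 with a lower one. Of the described called genes 10 could be tested and 1 passed, WRKY40. Its reads were 10 in Bing fruit and 24 in Rainier fruit, but 57 in Bing leaf and 24 in Rainier leaf, where the ratio was 1.87 (1.14 to 3.16). The adjusted p of this exact test was 0.00143, and like the calls it compares 4 libraries and not cultivars.

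A model over the 6 libraries that shared 1 spread between fruit and leaf and let cultivar and tissue act additively gave fewer calls. With edgeR's quasi-likelihood test, 1 of 1864 genes passed for Bing against Rainier, Pav_sc0000554.1_g050.1.br, with a log2 difference of 3.95 and an adjusted p of 0.00905, and 147 genes had an unadjusted p under 0.05. That model asks for a difference shared by fruit and leaf, so it does not test the fruit difference alone.

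Lapins fruit was the remaining fruit library and took no part in the choice of the genes. For the 671 genes called higher in Bing fruit, its share lay on the Rainier side of the midpoint between the 2 fruits in 567 (84.5%). For the 404 called higher in Rainier fruit, it lay on the Bing side in 140 (34.7%). Lapins fruit thus lay nearer to Rainier fruit for most genes of both sets. Genes chosen for an extreme value in one library can be expected to be less extreme in another, so the counts are given as a description. Of the 11 described genes on the Bing side, the 2 for which Lapins fruit lay on the Bing side were flavonoid 3'-monooxygenase and the G-type lectin kinase.

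**Figure D5:**
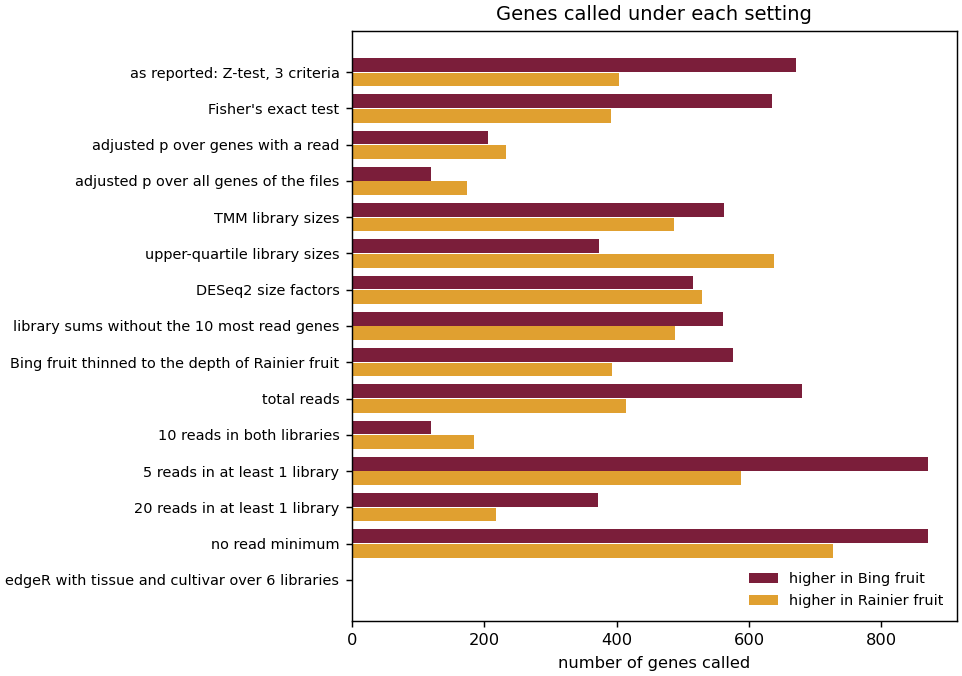
Number of genes called higher in Bing fruit and in Rainier fruit (horizontal axis) under each setting (rows). The counts of 671 and 404 in the row labelled as reported come from the unadjusted calls made here, not from the study. Upper-quartile library sizes turn the order to 373 and 638, and edgeR over 6 libraries, with 1 and 0 calls, has bars too short to see.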

How the data were processed

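Total RNA of fruit and leaf of the 3 cultivars was sequenced by 454 FLX. The authors mapped the reads to 43673 predicted coding sequences with CLC Genome Workbench 11.0.1, at a length fraction of 0.6 and a similarity of 0.9. The deposited files give counts of unique and of total gene reads, with TPM and RPKM beside them that were not used here. Unique read counts of Bing and Rainier fruit were analysed as shares of each library's sum, with 95% exact conditional intervals for ratios, under 3 criteria after the study's description (Z-test of Kal at p of at most 0.05, taken as unadjusted, ratio at least 2, at least 10 reads, taken as in 1 library or more). A gene list of 269 genes in 15 groups was drawn from the 581 annotation rows held. Coordinates and sequences were not analysed here. Named were all described genes called (up to 20 per direction), the pigment and cell wall genes with at least 10 reads over the pair, and per direction 2 genes without a description. The comparison, lists and rules were chosen with earlier results of these data known, and the exact test of fruit against leaf (Benjamini-Hochberg adjusted) was added after seeing the data. Alternatives were other read minimums, tests, adjustments and scalings, thinning, total reads, and edgeR 4.0.16 and DESeq2 1.42.0 (R 4.3.3); scripts used Python 3.11.15 and scipy 1.17.1 and were tested on simulated data. Unique read sums ranged from 70058 to 116264 per library, and non-specific reads were 1.49% of the total in Bing fruit and 1.79% in Rainier fruit. Reads carried no molecular identifiers, so intervals cover counting error only.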

Additional observations from a re-analysis of the deposited data

Results flagged for a closer look

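Of the 16 described genes called in fruit, 6 had a leaf ratio of the opposite direction. For WRKY40 (Pav_sc0000890.1_g500.1.mk) the difference between tissues passed the exact test, with an adjusted p of 0.00143: 10 reads in Bing fruit against 24 in Rainier fruit, and 57 in Bing leaf against 24 in Rainier leaf. Cellulose synthase A3, with 47 reads in Bing fruit and 68 in Rainier fruit, and 17 in Bing leaf and 10 in Rainier leaf, did not pass it, with an adjusted p of 0.201 in the exact test.

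For 4 others the difference between tissues was not tested, since the leaves held fewer than 10 reads together. The CYP82D47-like P450 (Pav_sc0000890.1_g1250.1.mk), higher in Bing fruit, had 2 reads in each leaf and a log2 leaf ratio of -0.34. The B3 domain gene (Pav_sc0000890.1_g1020.1.mk), also higher in Bing fruit, had the same leaf reads and the same leaf value of -0.34. NPY1 (Pav_sc0000890.1_g380.1.mk), higher in Bing fruit, had 1 read in Bing leaf and 5 in Rainier leaf, a log2 ratio of -2.66. Galacturonosyltransferase-like 1 (Pav_sc0000890.1_g1520.1.mk), higher in Rainier fruit, had 3 reads in Bing leaf and 1 in Rainier leaf, a log2 ratio of 1.24.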

How the results depend on the processing

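No replicate could be left out, because each cultivar and tissue had 1 library. The counts of genes called higher in Bing and in Rainier fruit, 671 and 404, were 206 and 233 with p-values adjusted over genes with a read, and 120 and 173 adjusted over all genes of the files. They were 373 and 638 with upper-quartile library sizes, 119 and 184 with at least 10 reads in both libraries, 372 and 218 with at least 20 reads in 1, and 870 and 727 with no minimum. The edgeR test over 6 libraries called 1 and 0, with 147 genes at an unadjusted p under 0.05. Fisher's exact test (635 and 392), total reads (680 and 414) and thinning Bing fruit to the depth of Rainier fruit (576 and 393) stayed within 1.5 times. So did TMM (562 and 486), DESeq2 size factors (515 and 529) and a minimum of 5 reads (870 and 587). Library sums without the 10 most read genes of each fruit, 14 genes in all, also did (561 and 488). Of the 16 described calls 9 were kept with p adjusted over genes with a read. With p adjusted over all genes 6 were kept: adagio 3, flavonoid 3'-monooxygenase, the CYP82D47-like gene, chorismate mutase 2, cellulose synthase A3 and galacturonosyltransferase-like 1. Under upper-quartile library sizes 11 were kept, under TMM and DESeq2 size factors 14 each, and under thinning 13; edgeR tested 7 of the 16 and called 0 of them. The described calls with 1 or 2 reads in Rainier fruit have intervals that span more than a factor of 10. The cause of these changes was not tested, beyond the smaller number of genes that higher minimums admit.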
